A study of Homo sapiens with 6 samples.

Results

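The IRX and DLX homeobox genes studied here are 10 transcription factor genes that lie in 4 groups on the human genome. IRX4, IRX2 and IRX1 lie on chromosome 5, IRX3, IRX5 and IRX6 on chromosome 16, DLX1 and DLX2 on chromosome 2, and DLX6 and DLX5 on chromosome 7. The members were the intervals of H3K27me3 enrichment, called islands, that came within 5 kb of these genes at positions given to the nearest kb on hg19. There were 17 such islands among 72972 listed in all: 8 of 21320 in Pfeiffer, 3 of 23180 in WSU-DLCL2 and 6 of 28472 in KARPAS-422. The genes were picked by name and position, not by a measured value, and all 10 are accounted for.

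H3K27me3 is the histone mark placed by the polycomb enzyme EZH2, and it is known for keeping developmental transcription factor genes silent outside the tissues that use them. The Iroquois (IRX) genes encode homeodomain factors of the TALE class, known for patterning the nervous system, heart and limbs. The Distal-less (DLX) genes encode homeodomain factors known from the forebrain, the jaw and the limbs. Each family holds clusters that arose by duplication, so a gene in one cluster has a closest relative in the other: IRX1 with IRX3, IRX2 with IRX5, IRX4 with IRX6, DLX1 with DLX6 and DLX2 with DLX5.

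The study mapped H3K27me3 by chromatin immunoprecipitation and sequencing in diffuse large B cell lymphoma lines chosen for unlike sensitivity to GSK126, an inhibitor of EZH2. Pfeiffer, WSU-DLCL2 and KARPAS-422 are all EZH2 mutant per the labels, with average gIC50 values of 28, 134 and 232 nM, and are named in that order. No drug treatment is given for the chromatin used. For each line there was a single H3K27me3 library with a single input library, which leaves no spread between replicates, and no p-value is given. Autosomal islands held 17024803, 17188115 and 16039824 H3K27me3 reads and 8800268, 8224578 and 5694645 input reads, and covered 25.6%, 24.8% and 24.7% of the autosomes. B cell identity was not checked against marker genes, since no hg19 annotation was used here.

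RefSeq promoter sequences, from 250 bases before to 50 bases after a gene's start on build GRCh38.p14, were matched by symbol for 6 of the 10 genes. They are shown for genes that differ most in the island lists: IRX2 and IRX1, which had no island within 5 kb in any line, DLX1, which had one in every line, and DLX6, which had one in Pfeiffer alone. Bases run 5′ to 3′ on the gene's strand, and capitals mark each CG dinucleotide.
IRX2: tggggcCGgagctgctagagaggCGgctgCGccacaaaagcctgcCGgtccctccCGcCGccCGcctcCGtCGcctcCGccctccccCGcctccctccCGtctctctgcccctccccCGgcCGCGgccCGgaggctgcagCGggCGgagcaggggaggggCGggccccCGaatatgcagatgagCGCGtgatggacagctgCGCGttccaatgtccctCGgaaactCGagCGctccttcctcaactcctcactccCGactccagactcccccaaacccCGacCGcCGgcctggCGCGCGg
IRX1: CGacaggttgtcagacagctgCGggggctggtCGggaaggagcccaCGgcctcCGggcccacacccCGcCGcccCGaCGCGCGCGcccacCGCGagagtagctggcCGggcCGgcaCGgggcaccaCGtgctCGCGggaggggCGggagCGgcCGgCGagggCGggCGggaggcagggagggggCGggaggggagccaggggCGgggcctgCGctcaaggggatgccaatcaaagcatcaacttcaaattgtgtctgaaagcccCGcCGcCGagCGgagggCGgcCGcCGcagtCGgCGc
DLX1: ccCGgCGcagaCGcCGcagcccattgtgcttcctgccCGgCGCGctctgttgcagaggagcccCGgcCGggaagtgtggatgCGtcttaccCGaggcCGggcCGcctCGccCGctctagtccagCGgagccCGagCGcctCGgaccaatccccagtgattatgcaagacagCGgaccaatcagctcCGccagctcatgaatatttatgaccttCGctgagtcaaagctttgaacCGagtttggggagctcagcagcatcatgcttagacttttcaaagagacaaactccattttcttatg
DLX6: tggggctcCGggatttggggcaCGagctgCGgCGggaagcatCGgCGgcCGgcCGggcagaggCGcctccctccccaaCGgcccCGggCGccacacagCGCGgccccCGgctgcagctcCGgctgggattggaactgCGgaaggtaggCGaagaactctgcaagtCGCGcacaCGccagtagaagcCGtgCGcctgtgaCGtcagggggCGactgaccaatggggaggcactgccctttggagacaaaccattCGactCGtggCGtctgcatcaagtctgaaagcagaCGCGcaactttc

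These promoters held 34 CG dinucleotides in IRX2, 38 in IRX1, 23 in DLX1 and 30 in DLX6. The DLX2 promoter held 30, and 3 alternative starts of IRX4 held 47, 36 and 44. The median of the 8 sequences was 35, against 14 over all 35116 promoters of the table. As many CG as in IRX1 were present in 9.91% of all promoters, and as many as in DLX1 in 35.8%. DLX1 and DLX2, with an island within 5 kb in every line, thus held fewer CG than IRX2 and IRX1, which had none. IRX4 also had an island within 5 kb in every line, and each of its 3 starts held more CG than IRX2. The letters TAATT, read on both strands, occurred in none of the 8 sequences and in 24.8% of all promoters. The palindromic letters ACANNTGT occurred in none of the 8 and in 5.62% of all promoters.

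Fewer of the 10 genes carried the mark in WSU-DLCL2 and KARPAS-422 than in Pfeiffer. Pfeiffer had an island within 5 kb of 8 genes, WSU-DLCL2 of 4 and KARPAS-422 of 5. With islands of fold 2 or more alone these counts were 3, 1 and 2, so that Pfeiffer and KARPAS-422 lay 1 gene apart. Among all windows of 15 kb along the autosomes, close to the 14 to 17 kb of a gene with its flanks, 32.9%, 32.7% and 33.9% met an island of any fold. No such share is given for islands of fold 2 or more alone, or for windows as short as a gene without flanks. Islands touched the gene itself for 8, 3 and 4 genes. IRX4, IRX6, DLX1 and DLX2 had an island within 5 kb in all 3 lines, IRX3 in Pfeiffer and KARPAS-422, IRX5, DLX6 and DLX5 in Pfeiffer, and IRX2 and IRX1 in none. Windows covered to at least 95% numbered 4, 2 and 0 of 10, against 16.9%, 15.5% and 14.2% of all windows. DLX1 and DLX2 are neighbours, as are DLX6 and DLX5, so that 1 island can count for a pair of genes. An absent island means that too few reads were found to call one. The islands listed had at least 43, 42 and 38 H3K27me3 reads and folds over input of at least 1.08, 1.06 and 1.06.

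**Figure D1:**
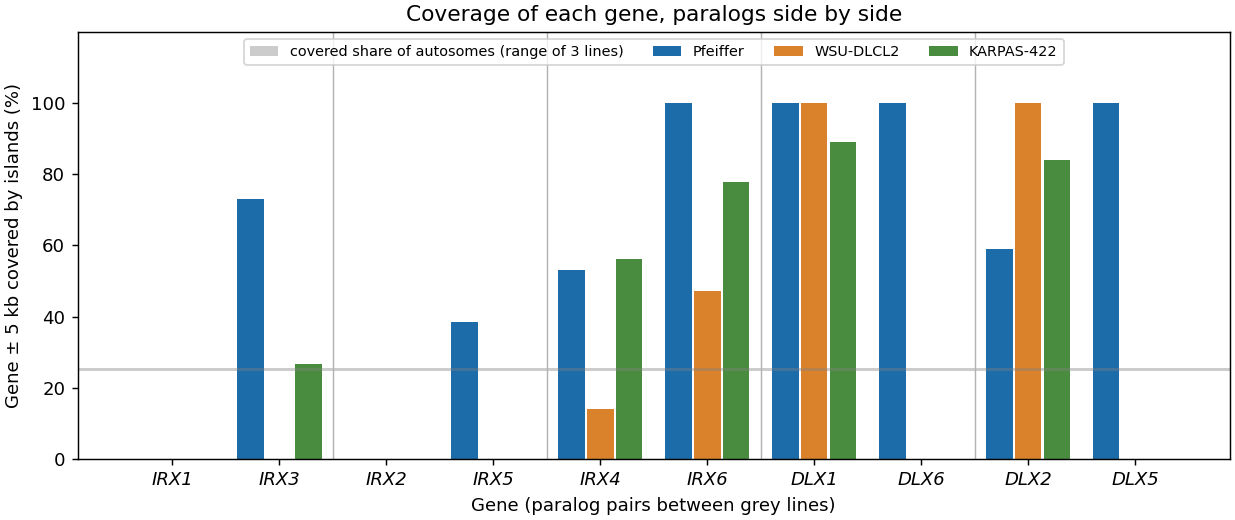
Share of each gene with 5 kb on both sides that islands covered (y axis, percent), by gene with its closest relative beside it (x axis) in Pfeiffer, WSU-DLCL2 and KARPAS-422; the grey band is the covered share of the autosomes. IRX1 and IRX2 were at 0 in the 3 lines, and DLX1 lay between 89.1% and 100%, while DLX6 and DLX5 were at 100% in Pfeiffer and 0 in the other lines.

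In the chromosome 5 cluster IRX4, known for ventricular identity in the hearts of chick and mouse, was the one gene with islands within 5 kb, and most covered bases lay between IRX4 and IRX2. These were 425 of 433.5 kb in Pfeiffer, 282 of 284.25 kb in WSU-DLCL2 and, with more beyond IRX2, 516 of 659.25 kb in KARPAS-422. IRX4 was listed from kb 1877 to 1883. In Pfeiffer an island of 50.25 kb ran from 1830001 to 1880250, over the lower part of the gene, and another of 81 kb from 1887751 to 1968750. In WSU-DLCL2 an island of 39 kb, from 1835251 to 1874250, ended before the gene. In KARPAS-422 an island of 48.75 kb ran from 1832251 to 1881000. The lines thus shared an uncovered stretch at the upper end of IRX4, which measured 7.5 kb in Pfeiffer and KARPAS-422 and 14.25 kb in WSU-DLCL2, and islands resumed at 1887751, 1888501 and 1888501. The gene is read from the minus strand, so its listed body starts at that upper end, and the kb there was uncovered in all 3 lines.

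Islands before IRX4 were among the strongest of their lists. The island that reached or neared the gene from below held 1985 H3K27me3 and 848 input reads in Pfeiffer. WSU-DLCL2 had 1523 and 434, and KARPAS-422 had 1453 and 236. The fold over input, a value of the authors' own per island, reached 2.02 for Pfeiffer (95% interval 1.86 to 2.19), 2.77 for WSU-DLCL2 (2.48 to 3.08) and 3.74 for KARPAS-422 (3.26 to 4.31). These stood at percentiles 90.2, 99.2 and 99.6 of the autosomal islands of each line. The Pfeiffer island above the gene had a like fold of 2.00 (1.88 to 2.13), from 3148 H3K27me3 and 1355 input reads. These and all later intervals reflect counting error alone, because each line had a single library of each kind. Copies of a molecule made by PCR could not be told apart, so the intervals may be too narrow. Folds were not ordered like the H3K27me3 reads themselves. The reads per kb were 2.01, 1.87 and 1.48 times the median island of the line, and input reads per kb were 1.57, 1.04 and 0.646 times the median. Input per kb was thus lowest in the line with the highest fold, and its part in the fold was not tested.

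IRX2 and IRX1, known from the developing nervous system, lay in stretches without an island. Pfeiffer had no island from 2643751 to 4867500, and WSU-DLCL2 had none from 2544001 to 4874250, stretches of 2223.75 and 2330.25 kb that take in both genes. Uncovered stretches of at least 2 Mb held 26.8%, 24.9% and 24.5% of the autosomal length, centromeres and assembly gaps included. In KARPAS-422 the stretch uncovered in Pfeiffer held 22 islands with a median length of 8.63 kb, which covered 10.4% of it. Their median fold was 1.81, and their pooled input per kb was 0.779 of the median island. Even so, none came within 5 kb of either gene. The nearest islands to IRX2 in KARPAS-422 ended 28 kb before and began 110 kb after the gene. IRX1 lay in an uncovered stretch of 25.5 kb there, between islands 8.75 kb before and 10.75 kb after it.

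Between the genes of this cluster the mark thinned out away from IRX4. From IRX4 to IRX2 Pfeiffer islands covered 49.8%, those of WSU-DLCL2 33.1% and those of KARPAS-422 60.5%. From IRX2 to IRX1 they covered 0%, 0% and 16.1%. KARPAS-422 divided the cluster most finely, with 47 islands of a median of 9.75 kb, against 11 islands of 24 kb in Pfeiffer and 14 of 12.4 kb in WSU-DLCL2. Short islands of the 3 lines overlapped between IRX4 and IRX2, that of Pfeiffer at 2537251 to 2546250, WSU-DLCL2 at 2539501 to 2544000 and KARPAS-422 at 2540251 to 2550000, with folds of 1.28 (1.01 to 1.64), 1.51 (1.06 to 2.17) and 2.90 (2.11 to 4.06). They measured 9, 4.5 and 9.75 kb, and the intervals of Pfeiffer and KARPAS-422, which reflect counting error alone, did not overlap. H3K27me3 reads per kb were 18.89 in the Pfeiffer island and 22.97 in that of KARPAS-422, while input reads per kb were 12.67 and 4.82. The median island of these lines had 10.77 and 7.50 input reads per kb. Whether input accounts for the difference between these folds was not tested.

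**Figure D2:**
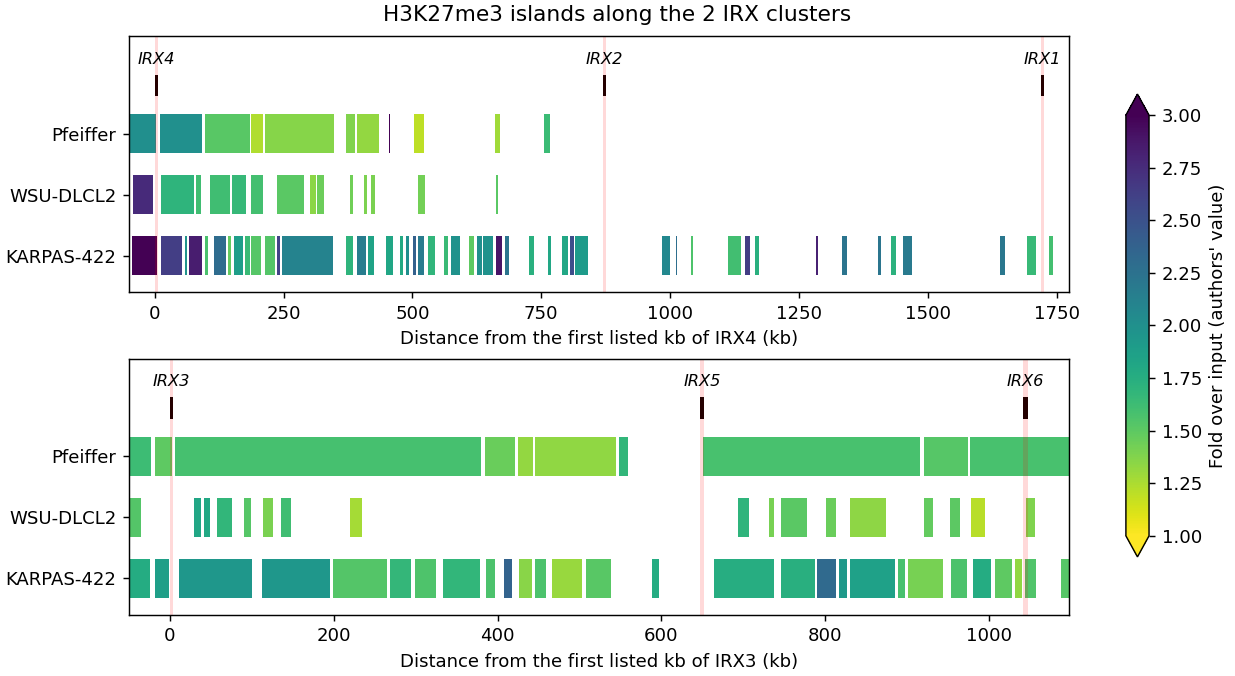
Islands of Pfeiffer, WSU-DLCL2 and KARPAS-422 (rows) along the IRX4-IRX2-IRX1 cluster (upper) and the IRX3-IRX5-IRX6 cluster (lower), by distance from the lowest gene in kb (x axis); colour is the authors' fold over input, and black boxes with pink bands are the genes. IRX2 and IRX1 lie outside islands in the 3 lines, and Pfeiffer covers most of the lower cluster (88.7%) with long islands.

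The chromosome 16 cluster was covered more widely than its duplicate in each line. Islands covered 25.0% of IRX4-IRX2-IRX1 and 88.7% of IRX3-IRX5-IRX6 in Pfeiffer, a difference of -63.7 percentage points. In WSU-DLCL2 they covered 16.4% and 22.4%, a difference of -5.99 points, and in KARPAS-422 38.0% and 75.5%, a difference of -37.5 points. The clusters differ in span, 1735 kb against 1058 kb with flanks. Relative to the median island of the line, input per kb of islands within 1 Mb of the clusters was 1.53 at IRX4-IRX2-IRX1 and 1.34 at IRX3-IRX5-IRX6 in Pfeiffer. WSU-DLCL2 had 1.07 and 0.951, and KARPAS-422 had 0.817 and 0.9997. Pfeiffer thus had the highest input at both clusters, counted from reads inside islands only. What part input has in these shares was not tested. The order of the clusters depends on weak islands: with islands of fold 2 or more alone, the shares were 5.19% and 0% in Pfeiffer, 0.130% and 0% in WSU-DLCL2, and 20.1% and 3.05% in KARPAS-422. At a false discovery rate of 1e-10, which kept the order in Pfeiffer and KARPAS-422, WSU-DLCL2 had 12.8% and 11.6%.

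Higher coverage did not go with higher fold. Pooled over all islands that met each cluster, the fold was 1.58 (1.54 to 1.63) at IRX4-IRX2-IRX1 and 1.55 (1.52 to 1.58) at IRX3-IRX5-IRX6 in Pfeiffer. The ratio of the folds was 1.02 (0.985 to 1.06). In WSU-DLCL2 the folds were 1.73 (1.66 to 1.80) and 1.46 (1.39 to 1.54), a ratio of 1.18 (1.11 to 1.26). In KARPAS-422 they were 2.12 (2.05 to 2.19) and 1.70 (1.65 to 1.75), a ratio of 1.24 (1.19 to 1.30). The less covered cluster had the higher fold in WSU-DLCL2 and KARPAS-422 beyond counting error, while the interval of Pfeiffer included 1. In KARPAS-422, however, H3K27me3 reads per kb of these islands were nearly equal, 20.8 and 20.6, while input reads per kb were 5.98 and 7.36. WSU-DLCL2 had 23.7 and 17.8 H3K27me3 reads per kb, with 10.8 and 9.60 input reads. What part input has in these ratios was not tested. Islands with a fold of at least 2 numbered 3 of 11, 1 of 14 and 22 of 47 at IRX4-IRX2-IRX1, and 0 of 9, 0 of 16 and 2 of 26 at IRX3-IRX5-IRX6. Such folds were reached by 10.5%, 11.3% and 19.6% of all autosomal islands, and by 3 of 8, 1 of 3 and 2 of 6 islands within 5 kb of the 10 genes.

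IRX3, known from neural tube patterning and as a gene near the FTO obesity locus, lay at a break between islands. It was listed from kb 54317 to 54321. In Pfeiffer an island of 21 kb ended at 54319500 inside the gene, and one of 373.5 kb began at 54323251, leaving 3.75 kb uncovered. In KARPAS-422 the break was wider, with an island ending at 54315750 and the next beginning at 54327751, 12 kb on. In WSU-DLCL2 the break around the gene measured 65.25 kb. The island before IRX3 held 482 H3K27me3 and 277 input reads in Pfeiffer and 337 and 109 in KARPAS-422, with folds of 1.50 (1.29 to 1.74) and 1.88 (1.51 to 2.35). The island of 373.5 kb held 9206 H3K27me3 and 4980 input reads. It was longer than 99.7% of the autosomal islands of Pfeiffer or as long, and its fold of 1.59 (1.54 to 1.65) was near the median of 1.58.

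IRX5, altered in the human Hamamy syndrome, was met only at one end. It was listed from kb 54964 to 54969. A Pfeiffer island of 264 kb began inside the gene at 54968251 and ran to 55232250, with 7467 H3K27me3 and 4072 input reads and a fold of 1.58 (1.52 to 1.64). It covered 15% of the gene. On the other side no island was listed for 92.25 kb. In WSU-DLCL2 IRX5 lay in an uncovered stretch of 459 kb and in KARPAS-422 in one of 68.25 kb, whose upper limit was 12.75 kb past the gene.

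IRX6, known from the mouse retina, was the one IRX gene with an island over part or all of it in the 3 lines. It was listed from kb 55358 to 55365. In Pfeiffer an island of 261 kb, from 55293751 to 55554750, covered all of it, with 6834 H3K27me3 and 3712 input reads and a fold of 1.59 (1.52 to 1.65). In WSU-DLCL2 an island of 11.25 kb, from 55362001 to 55373250, held 188 H3K27me3 and 107 input reads and had a fold of 1.38 (1.09 to 1.77). In KARPAS-422 an island of 13.5 kb, from 55361251 to 55374750, held 275 and 108 reads with a fold of 1.55 (1.23 to 1.95). A second of 9 kb ended at 55357500, just before the gene, with a fold of 1.33 (0.994 to 1.80). The start of the island over the gene thus differed by 750 bases, 1 window of the caller, between WSU-DLCL2 and KARPAS-422.

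Short breaks between islands fell near some of the genes. An uncovered stretch of at most 15 kb between islands touched the window of 2 genes in Pfeiffer (IRX4 and IRX3), 1 in WSU-DLCL2 (IRX4) and 5 in KARPAS-422 (IRX4, IRX3, IRX6, DLX1 and DLX2). Of all 15 kb windows of the autosomes, 7.75%, 8.16% and 10.3% touched such a stretch. This limit of length was chosen after the breaks had been seen, and the break between DLX1 and DLX2 in KARPAS-422 was counted for both genes.

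DLX1 and DLX2, needed for interneurons of the mouse forebrain, lay under islands in all 3 lines. They were listed from kb 172949 to 172955 and from 172964 to 172968. A Pfeiffer island of 27 kb, from 172940251 to 172967250, held 744 H3K27me3 and 289 input reads. A WSU-DLCL2 island of 48.75 kb, from 172938001 to 172986750, held 1190 and 536 reads. In KARPAS-422 each gene had its own island. That of DLX1, from 172940251 to 172958250, held 336 and 116 reads, and that of DLX2, from 172961251 to 172973250, held 273 and 71 reads. The lower limit was the same base in Pfeiffer and KARPAS-422 and lay 3 windows lower in WSU-DLCL2. The upper limit differed more, so that the last listed kb of DLX2, where this minus-strand gene starts, was covered to 25% in Pfeiffer and fully in the other lines.

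The fold at this pair was 2.22 (1.93 to 2.55) for Pfeiffer and 1.75 (1.58 to 1.94) for WSU-DLCL2. In KARPAS-422 they were 1.76 (1.42 to 2.19) at DLX1 and 2.34 (1.79 to 3.08) at DLX2. These stood at percentiles 96.0, 73.8, 65.1 and 91.6 of their lists. Input per kb in the same islands was 0.994, 1.02, 0.860 and 0.789 times the median island. Over the islands within 1 Mb it was 1.02, 1.04 and 1.03, so input around this pair was close to the median in each line.

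The duplicate pair, DLX6 and DLX5, was marked in Pfeiffer only. These genes, in the human region of split hand and foot malformation, were listed from kb 96635 to 96641 and from 96649 to 96655. A Pfeiffer island of 38.25 kb, from 96622501 to 96660750, covered both with their flanks. It held 742 H3K27me3 and 341 input reads and had a fold of 1.87 (1.65 to 2.14), at percentile 82.4. In WSU-DLCL2 the genes lay in an uncovered stretch of 60 kb and in KARPAS-422 in one of 61.5 kb, both beginning at 96606001. Input within 1 Mb was 0.893, 0.885 and 0.996 of the median island in the 3 lines, and 0.828 in the Pfeiffer island itself. These input values come from reads inside islands only, and what part input has in the difference between lines was not tested.

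Islands to either side of DLX6 and DLX5 were present in all lines. Beyond DLX5 an island of 8.25 kb lay at 96667501 to 96675750 in both Pfeiffer and KARPAS-422, and WSU-DLCL2 had it at 96666001 to 96674250. It held 181, 163 and 165 H3K27me3 reads against 105, 87 and 71 input reads, with folds of 1.48 (1.16 to 1.91), 1.48 (1.13 to 1.94) and 1.41 (1.06 to 1.89). Its length was equal in the lines and its folds lay within each other's intervals. Before DLX6, a Pfeiffer island ran from 96587251 to 96612750, a WSU-DLCL2 island from 96596251 to 96606000 and a KARPAS-422 island from 96594751 to 96606000. The Pfeiffer island there measured 25.5 kb, against 9.75 kb in WSU-DLCL2 and 11.25 kb in KARPAS-422. Pfeiffer had a further island of 25.5 kb at 96558001 to 96583500, with 390 H3K27me3 and 229 input reads and a fold of 1.47 (1.24 to 1.73). Over its part within 60 kb of DLX6 the other lines listed none, and its remaining part was not compared. The lines thus differed below DLX6 as well as over the genes.

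**Figure D3:**
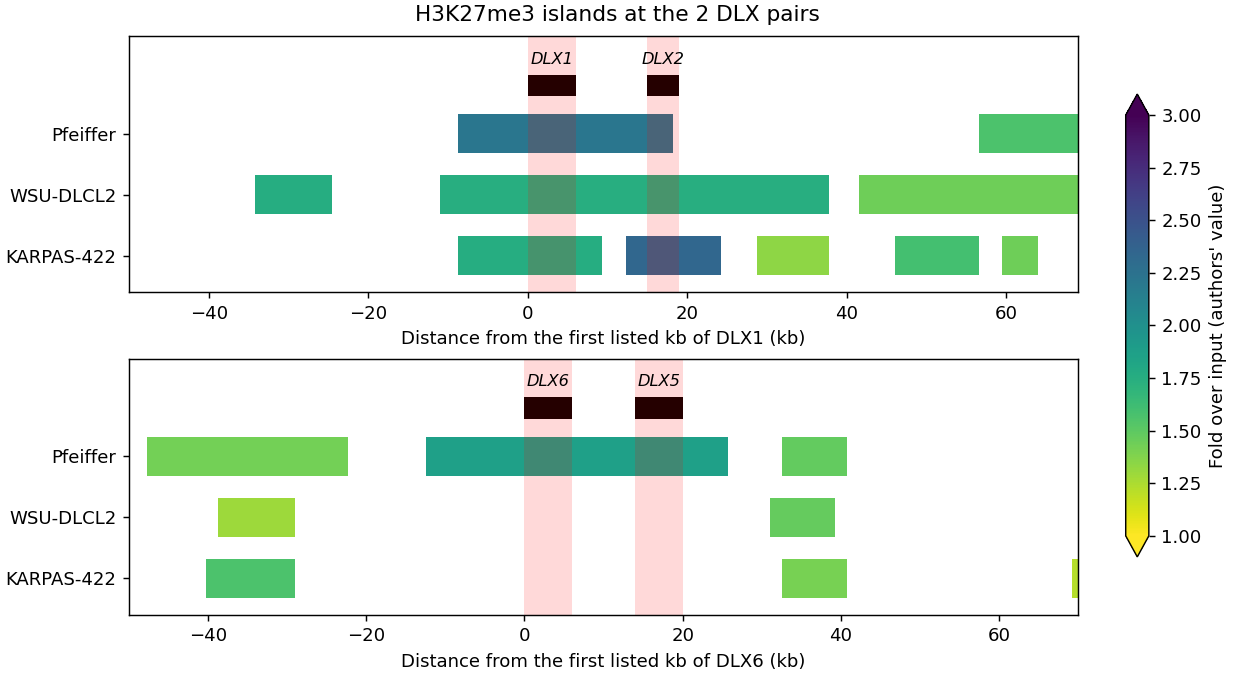
Islands of Pfeiffer, WSU-DLCL2 and KARPAS-422 (rows) around DLX1-DLX2 (upper) and DLX6-DLX5 (lower), by distance from the lower gene in kb (x axis); colour is the authors' fold over input, and black boxes with pink bands are the genes. The island of 38.25 kb over DLX6 and DLX5 is in the Pfeiffer row alone, while the island of 8.25 kb beyond DLX5 is in all 3 rows.

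With 5 kb flanks, the DLX pairs thus differed from each other in opposite directions by line. Islands covered 80.2% of DLX1-DLX2 and 100% of DLX6-DLX5 in Pfeiffer, a difference of -19.8 points. They covered 100% and 0% in WSU-DLCL2, a difference of 100 points, and 89.7% and 0% in KARPAS-422, a difference of 89.7 points. Without flanks the Pfeiffer shares were 96.1% and 100%, so the difference in that line depended largely on the flanks. In Pfeiffer, the one line with islands at both, the fold of DLX1-DLX2 was 1.18 times that of DLX6-DLX5 (0.982 to 1.43), an interval that includes 1. With islands of fold 2 or more alone, DLX6-DLX5 in Pfeiffer and DLX1-DLX2 in WSU-DLCL2 were covered to 0%, so the sign in Pfeiffer turned and the difference in WSU-DLCL2 was lost, while KARPAS-422 kept 40.5% of DLX1-DLX2. Gene by gene, DLX1 was covered to 100%, 100% and 89.1% of its window and DLX6 to 100%, 0% and 0%. DLX2 was covered to 58.9%, 100% and 83.9% and DLX5 to 100%, 0% and 0%.

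Among the IRX genes, the member on chromosome 16 was covered at least as far as its relative on chromosome 5 in each line. IRX1 was at 0% in the 3 lines, against 73.2%, 0% and 26.8% for IRX3. IRX2 was at 0% in the 3 lines, against 38.3%, 0% and 0% for IRX5. IRX4 was covered to 53.1%, 14.1% and 56.3%, against 100%, 47.1% and 77.9% for IRX6. The 9 comparisons hold 6 with the chromosome 16 gene higher and 3 with both genes at 0, and genes of a cluster share their chromosome and can share islands. With islands of fold 2 or more alone, IRX4 was the one IRX gene with an island in any line, so the order of IRX4 and IRX6 turned.

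**Figure D4:**
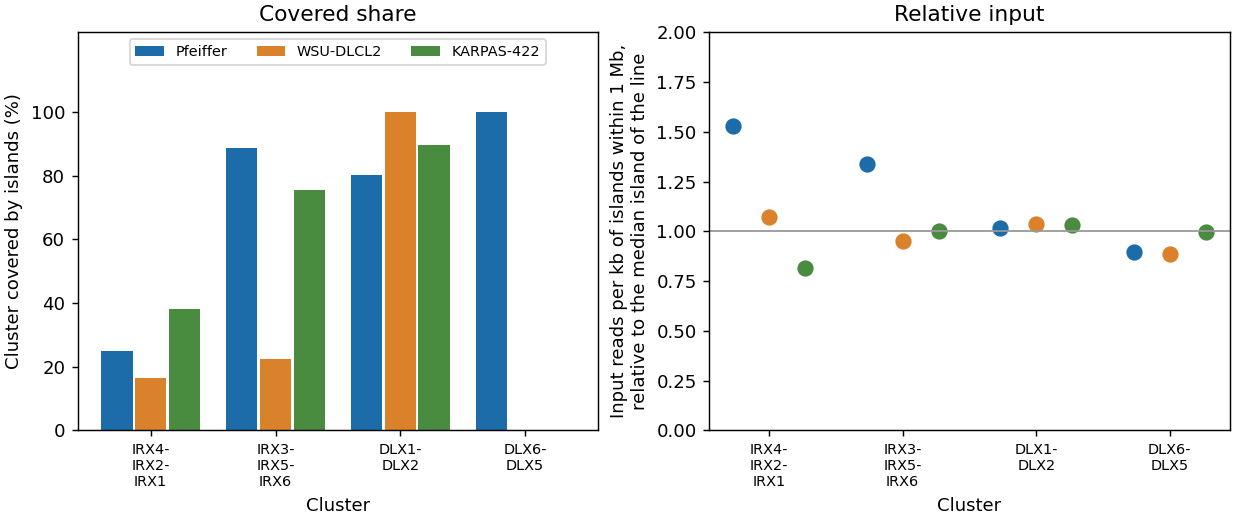
Covered share of the 4 clusters in percent (left) and input reads per kb of islands within 1 Mb relative to the median island of the line (right), in Pfeiffer, WSU-DLCL2 and KARPAS-422; the grey line is a relative input of 1. Input is raised in Pfeiffer at both IRX clusters (1.53 and 1.34), while at the DLX pairs it lies between 0.885 and 1.04 in the 3 lines.

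Lines overlapped unevenly among the clusters. Of the bases covered in any line, 32.8% were covered in all 3 lines at IRX4-IRX2-IRX1, 24.5% at IRX3-IRX5-IRX6, 69.8% at DLX1-DLX2 and 0% at DLX6-DLX5, against 41.2% over the autosomes. The Jaccard index, which is 1 for identical coverage and 0 for none shared, reached 0.826 for Pfeiffer and KARPAS-422 at IRX3-IRX5-IRX6. There it was 0.252 for Pfeiffer and WSU-DLCL2 and 0.290 for WSU-DLCL2 and KARPAS-422, and over the autosomes the 3 pairs had 0.555, 0.576 and 0.553. The low values at this cluster go with unequal covered lengths, which were 938 kb in Pfeiffer, 236.75 kb in WSU-DLCL2 and 798.5 kb in KARPAS-422. Of the bases covered in WSU-DLCL2, Pfeiffer shared 236.75 kb and KARPAS-422 shared 233 kb. At IRX4-IRX2-IRX1 the closest pair was another, Pfeiffer and WSU-DLCL2, with 0.650. Pfeiffer and KARPAS-422 had 0.481 and WSU-DLCL2 and KARPAS-422 0.345 at that cluster.

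Single limits of islands were shared between lines to an uneven extent. Counting each start and end within 60 kb of a cluster, 12 of 22 Pfeiffer limits at IRX4-IRX2-IRX1 lay within 1.5 kb of a KARPAS-422 limit of the same kind. At IRX3-IRX5-IRX6 this held for 8 of 20, against 29.8% of all autosomal limits of Pfeiffer. Read from KARPAS-422, whose islands are more numerous, the same limits were 12 of 96 and 8 of 54, against 22.9%. With WSU-DLCL2, Pfeiffer shared 5 of 22 and 2 of 20 limits, against 28.6% over the autosomes. WSU-DLCL2 shared 8 of 28 and 8 of 34 limits with KARPAS-422, against 30.3%. At DLX1-DLX2, Pfeiffer shared 0 of 3 limits with WSU-DLCL2 and 1 of 3 with KARPAS-422, and WSU-DLCL2 shared 1 of 5 with KARPAS-422. At DLX6-DLX5 these were 2 of 8, 3 of 8 and 4 of 5. The share therefore depends on which line it is read from, and the counts are small.

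**Figure D5:**
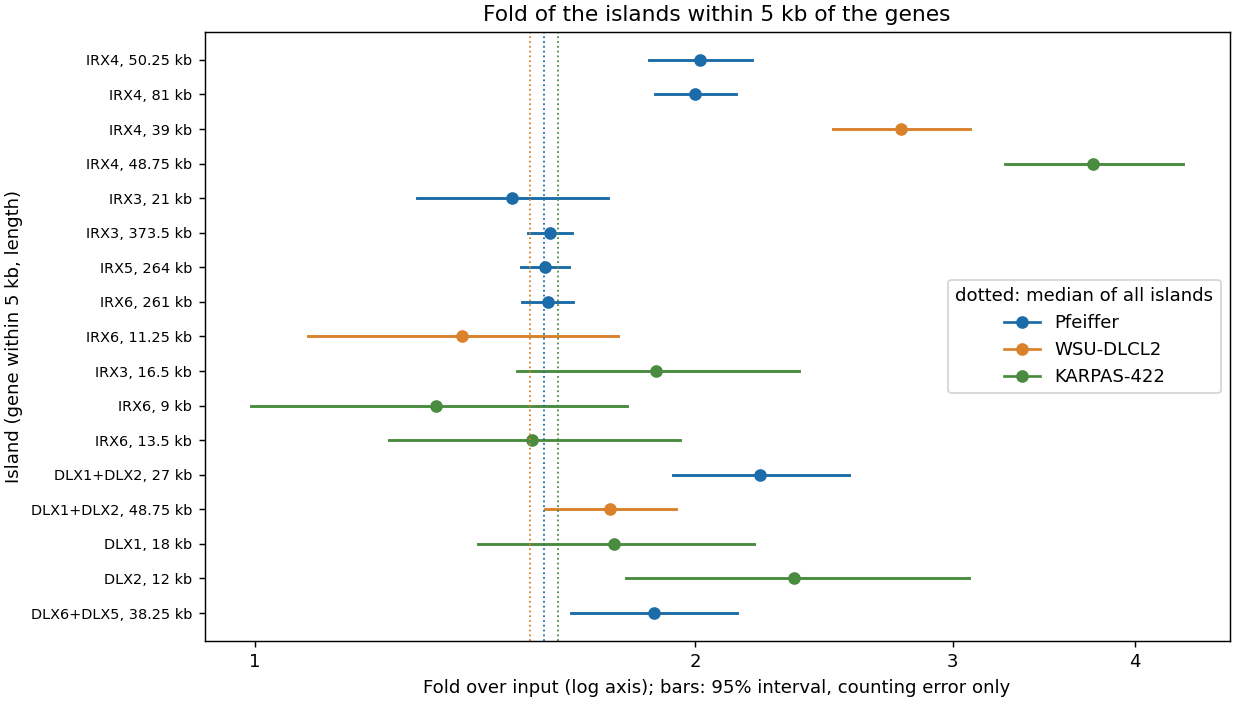
The authors' fold over input (x axis, log scale) of the 17 islands within 5 kb of the genes (rows, with the gene and island length), with 95% intervals for counting error; colours are Pfeiffer, WSU-DLCL2 and KARPAS-422, and dotted lines the median island of each line. The islands within 5 kb of IRX4 in WSU-DLCL2 and KARPAS-422 have the highest folds (2.77 and 3.74), and the long Pfeiffer islands at IRX3, IRX5 and IRX6 lie near the median of 1.58.

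Median folds of the islands near the genes were 1.73 for Pfeiffer, 1.75 for WSU-DLCL2 and 1.82 for KARPAS-422, against 1.58, 1.54 and 1.61 over all autosomal islands. In length the median member island measured 65.6, 39 and 15 kb, while that of all autosomal islands measured 20.25, 18.75 and 15.75 kb. A long island is more likely than a short one to come within 5 kb of any given position. These 2 sets of lengths are therefore not directly comparable. The 3 WSU-DLCL2 islands ranged in fold from 1.38 at IRX6 to 2.77 at IRX4. Folds of different lines rest on each line's own libraries and scaling, and island lengths on how its reads were divided into islands.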

How the data were processed

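Chromatin of 3 lymphoma lines was immunoprecipitated for H3K27me3, with 1 H3K27me3 and 1 input library per line. The submitters' processing notes name Bowtie, SICER and hg19 with no versions. SICER's settings stand in the deposited file names: windows of 750 bases, gaps of up to 2250 bases, and 0.001 as the false discovery rate. Per island, the authors' lists hold whole read counts of H3K27me3 and input, a p-value and q-value, and a fold (ratio over input after scaling the libraries). Input reads stand for background. Reads outside islands and the full depth are unknown, and duplicate handling is not given in the sources used here.

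Positions were counted from 1. Islands within 5 kb of the 10 genes were taken, and covered bases counted for each gene with 5 kb flanks and for each cluster with the same flanks. Pooled folds used summed counts and the list's scaling (Pfeiffer 1.16, WSU-DLCL2 1.27, KARPAS-422 1.65). The 95% intervals are exact for a ratio of 2 counts; the interval of a ratio of folds used the log scale. Background windows of 15 kb tiled the 22 autosomes. Relative input pooled islands centred within 1 Mb of a cluster. The intervals and coverage counts were tested on simulated data. All 10 genes are named. Members, lists and measures were chosen with earlier results of these data known. No hg19 annotation was used here, so other homeobox genes, polycomb genes and cell type markers were not analysed here. Alternatives tried were islands with a fold of 2 or more alone, a false discovery rate of 1e-10, joining across gaps under 5 kb, flanks of 0 and 10 kb, lists of equal covered length and another scaling. Python 3.11.15, numpy 2.4.6, pandas 2.3.3, scipy 1.17.1 and matplotlib 3.10.9 were used.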

Additional observations from a re-analysis of the deposited data

How the results depend on the processing

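Of 161 values under an alternative, 126 stayed close to the reported one: within 5 percentage points for covered shares, within 1.5 times for counts and within the counting interval for pooled folds. Pooled folds that could not be given, since no island was left, are not among the 161. Shares already at 0%, those of DLX6-DLX5 in WSU-DLCL2 and KARPAS-422, could not fall under stricter lists, yet count as close. Lists of equal covered length moved none of the 18 values computed. This alternative could change little, since the lists covered 737.7 Mb (Pfeiffer), 713.6 Mb (WSU-DLCL2) and 711.8 Mb (KARPAS-422) of the autosomes. They were cut to the shortest, that of KARPAS-422, so the values of that line could not move. A fold of at least 2 moved 15 of 23 values, and scaling by the reads inside islands moved 10 of 10. The first left 3, 1 and 2 genes with an island in Pfeiffer, WSU-DLCL2 and KARPAS-422, with 21.0%, 1.44% and 13.3% of the gene windows covered. IRX4-IRX2-IRX1 was then covered to 5.19%, 0.130% and 20.1%, IRX3-IRX5-IRX6 to 0%, 0% and 3.05%, DLX1-DLX2 to 0% (WSU-DLCL2) and 40.5% (KARPAS-422), and DLX6-DLX5 to 0% in Pfeiffer. So the wider coverage of the chromosome 16 cluster rests on islands of low fold. In all 3 lines the order of the IRX clusters then turned, but in WSU-DLCL2 both shares were close to 0%. In Pfeiffer the turn rested largely on the island of 81 kb above IRX4, whose fold of 2.00 lay at the cut. A false discovery rate of 1e-10 left WSU-DLCL2 with 20.7% of the gene windows and 11.6% of IRX3-IRX5-IRX6, below its share of IRX4-IRX2-IRX1. Joining islands under 5 kb apart filled DLX1-DLX2 in KARPAS-422 to 100%.

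Without flanks DLX1-DLX2 was covered to 96.1% in Pfeiffer and 84.2% in KARPAS-422, and with flanks of 10 kb to 69.2% and 77.6%. With 10 kb, DLX6-DLX5 was covered to 89.4% in Pfeiffer, and the pooled fold near the genes of IRX4-IRX2-IRX1 became 2.08 (WSU-DLCL2) and 2.91 (KARPAS-422), since the island above IRX4 then counted. Scaling by the reads inside islands sets the fold of a line's own islands near 1 by construction. Pooled folds were then 1.20, 1.68 and 2.19 at IRX4-IRX2-IRX1, 0.951, 0.841 and 0.947 at IRX3-IRX5-IRX6, 1.33, 1.06 and 1.16 at DLX1-DLX2, and 1.12 at DLX6-DLX5 in Pfeiffer. Where no island was left near the genes of a cluster, no pooled fold could be given.

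Each line rests on 1 library of each kind, so every difference between lines is a difference between libraries. Input reads, in which intervals are widest, were fewest in KARPAS-422. Gene positions are known to the nearest kb and island limits to 750 bases, so that shares of the short DLX windows move most with the flank.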

Other observations

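Islands continued past both ends of IRX3-IRX5-IRX6 in Pfeiffer and KARPAS-422. Below IRX3, Pfeiffer had islands of 108 kb (54149251 to 54257250, fold 1.69, 95% interval 1.58 to 1.80) and 30.75 kb, and KARPAS-422 had one of 99 kb (54194251 to 54293250, fold 1.77, 1.63 to 1.93). Within 60 kb below IRX3, WSU-DLCL2 had one of 13.5 kb, from 54267751 to 54281250 (fold 1.53, 1.23 to 1.91). WSU-DLCL2 islands farther below were not compared. Past IRX6, KARPAS-422 had an island of 76.5 kb from 55404751 to 55481250 (fold 1.53, 1.39 to 1.68), inside the stretch that the island over IRX6 spans in Pfeiffer.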
